A study of Mus musculus with 24 samples.

Results

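Giant scaffold and cytoskeletal linker mRNAs were described in the cerebral cortex of 7-day-old mice: Pclo, Bsn, Ank2, Ank3, Dst, Macf1, Plec, Dync1h1, Syne1 and Lrp1. They are 10 genes of the 18193 that the array annotation names by a single symbol, and 35 of its 45037 probe sets carry 1 of these 10 symbols alone. A further probe set that lists Plec beside Parp10 was not used. The genes were chosen by name with values of the same arrays already known, namely the polyribosomal and total RNA levels of Pclo, Ank3, Dync1h1 and Dst in wild-type cortex and the genotype difference of Plec in polyribosomal RNA. The difference between polyribosomal and total RNA is therefore given for them as a description, with no test.

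The mice were males on the FVB background, Fmr1 knockouts (KO) and their wild-type (WT) littermates, from 6 littermate pairs by the study's design. Each biological replicate was a lysate of the cortices of 2 mice of 1 genotype, and each lysate gave a pair of arrays, so that 24 arrays fall into 4 groups of 6: KO polyribosomal, WT polyribosomal, KO total and WT total RNA. Polyribosomal RNA was a pool of fractions 10 to 13 of the 16 fractions of a sucrose gradient, where mRNAs carry 6 or more ribosomes, and other fractions were not analysed here. Total RNA was 20% of the same cleared cytoplasmic lysate, set aside before the gradient, so neither preparation holds nuclear RNA or what was spun down beforehand. White matter was dissected away, and the cells of the cortex were not separated.

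The mRNAs share very long coding sequences and fall into 5 kinds by function. Pclo and Bsn encode piccolo and bassoon, the scaffolds of the presynaptic active zone, and Ank2 and Ank3 encode ankyrin-B and ankyrin-G, which tie membrane proteins to the spectrin skeleton. Dst, Macf1 and Plec encode plakins, which link actin, microtubules and intermediate filaments to each other. Dync1h1 encodes the heavy chain of cytoplasmic dynein, the motor that walks to microtubule minus ends, and Syne1 encodes nesprin-1, which joins the nuclear envelope to the cytoskeleton. Lrp1 is a large endocytic receptor of the LDL receptor family and is neither a scaffold nor a linker in the sense of the others. FMRP, the product of Fmr1, is an RNA-binding protein that associates with polyribosomes, and mRNAs of several of these genes are among those it binds in mouse brain.

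The labels were checked with Fmr1 itself. At its brightest probe set Fmr1 averaged 6.19 ± 0.48 in KO polyribosomal RNA and 9.90 ± 0.21 in WT polyribosomal RNA (log2 array value, SD, n = 6 each), a KO minus WT difference of -3.71. In total RNA it averaged 6.38 ± 0.17 in KO and 9.66 ± 0.18 in WT, a difference of -3.28. The groups did not overlap at any of its 3 probe sets, and an exact permutation test, two-sided, gave 0.00216 at each probe set, which is the smallest p that 924 splits allow. Arrays of 1 group correlated at 0.991 to 0.998 over all probe sets, and polyribosomal with total arrays at 0.980 to 0.988. All 10 excitatory neuron markers on the array reached a log2 value of 4 in every array, whereas the 2 blood markers on it stayed below 4 in every array.

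Array values below are log2 expression of a probe set, and a level is never set against that of another probe set. Each gene is described first at the probe set with the highest mean over the 24 arrays. Equal amounts of RNA were labelled from each preparation, so a polyribosomal minus total difference is relative to the other mRNAs of the same arrays and is not the share of an mRNA that sits on polyribosomes. A probe set entered a comparison if it had a log2 value of 4 or more in at least 6 of the arrays compared. Of the 35 probe sets, 21 passed in the KO and 21 in the WT comparison of polyribosomal with total RNA, 20 passed in the genotype comparison of polyribosomal RNA, and 22 in that of total RNA. The brightest probe set of each of the 10 genes passed in all of these.

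Most of the 10 mRNAs were low in polyribosomal RNA relative to total RNA, but by very different amounts. The median polyribosomal minus total difference of the 10 genes was -0.88 in KO and -0.71 in WT on the log2 scale, where the median over all genes measured was 0.087 in KO and 0.089 in WT. Pclo, Dst, Ank3 and Dync1h1 had differences of -1.48 or lower in KO and of -1.22 or lower in WT. Macf1 and Ank2 lay between -0.93 and -0.69 in both genotypes. Bsn, Syne1 and Plec were between -0.49 and -0.12, and Lrp1 was near 0 in KO and above 0 in WT. The choice of genes used this contrast for Pclo, Ank3, Dync1h1 and Dst, which are among the lowest. Nothing is therefore read from the median of the 10 genes or from how many passed the threshold.

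In numbers, 10 of 10 genes were below 0 in KO cortex, against 42.9% of all genes, and 9 of 10 in WT cortex, against 43.6%. Differences were below 0 in all 6 lysates for 6 genes in KO and 8 genes in WT, where the share of all genes was 24.9% in each genotype. Polyribosomal and total arrays did not overlap for Pclo, Ank2, Ank3, Dst, Macf1 and Dync1h1 in either genotype, with all 6 lower on polyribosomes. The same held for 18.1% of all genes in KO and 18.3% in WT. At an adjusted p under 0.05 in limma, 28.2% of all genes were lower and 38.7% higher in polyribosomal RNA of KO cortex, and 28.4% were lower and 37.5% higher in WT cortex. By the same rule 9 of the 10 were lower in KO and 8 in WT. Both counts include Pclo, Ank3, Dync1h1 and Dst, whose WT values were known when the genes were chosen, so nothing is read from these counts.

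Pclo, the gene of the active zone scaffold piccolo, lies on chromosome 5 and was measured at 3 probe sets that passed the filter. In KO cortex its lowest, median and highest values were 7.34, 7.58 and 8.36 in polyribosomal RNA, against 9.50, 9.75 and 9.94 in total RNA. In WT cortex they were 7.28, 7.70 and 8.38 in polyribosomal RNA, against 9.37, 9.69 and 9.88 in total RNA. Even the highest polyribosomal array was more than 1 log2 unit below the median of total RNA in its genotype. The difference within a lysate averaged -2.06 ± 0.29 in KO, or 4.16-fold lower on polyribosomes, and -1.84 ± 0.33 in WT, or 3.58-fold lower (SD, n = 6 lysates each). Only 0.985% of all genes had a lower difference in KO, and 1.55% in WT.

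Bsn, on chromosome 9, encodes bassoon, which is built like piccolo and sits in the same cytomatrix, but its values moved much less. Its lowest, median and highest values in KO cortex were 4.79, 5.41 and 5.88 in polyribosomal RNA, against 5.58, 5.73 and 6.14 in total RNA. In WT cortex they were 4.93, 5.47 and 5.82 in polyribosomal RNA, against 5.61, 5.92 and 6.10 in total RNA. The groups overlapped in both genotypes. The difference averaged -0.40 ± 0.32 in KO, where the lysate of number 2 was above 0 at 0.17, and -0.43 ± 0.22 in WT. Of all genes 21% lay lower in KO and 20.6% in WT. The gene was dim on this array at all its probe sets.

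Ankyrin-G and ankyrin-B, products of related genes, differed in the same way. Ank3, on chromosome 10, encodes ankyrin-G, the organiser of the axon initial segment. It had 8.24, 8.72 and 9.32 in KO polyribosomal RNA, against 10.32, 10.33 and 10.43 in KO total RNA (lowest, median and highest of 6 arrays). In WT cortex it had 8.44, 8.94 and 9.90 in polyribosomal RNA, against 10.15, 10.33 and 10.54 in total RNA. Its total RNA values were close together, with an SD of 0.046 in KO and 0.15 in WT, against 0.40 in KO and 0.54 in WT polyribosomal RNA. The difference was -1.66 ± 0.39 in KO and -1.33 ± 0.57 in WT, or 3.16-fold lower in KO and 2.51-fold lower in WT.

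Ank2, on chromosome 3, encodes ankyrin-B, which is found along axons. Its polyribosomal values were lower by less than those of Ank3. KO cortex gave 9.61, 10.49 and 10.96 in polyribosomal RNA, against 11.09, 11.29 and 11.38 in total RNA. WT cortex gave 10.04, 10.70 and 11.16 in polyribosomal RNA, against 11.17, 11.33 and 11.43 in total RNA. The highest polyribosomal array of WT thus almost reached its lowest total array. The difference averaged -0.84 ± 0.48 in KO and -0.69 ± 0.44 in WT.

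Among the plakins the order ran from Dst through Macf1 to Plec in both genotypes. Dst, on chromosome 1, encodes dystonin, a spectraplakin that sensory neurons need for their axonal cytoskeleton. Its polyribosomal values in KO cortex were 5.55, 5.98 and 6.93, against 7.75, 7.97 and 8.34 in total RNA. Those in WT cortex were 5.66, 6.24 and 7.18, against 7.94, 8.09 and 8.31 in total RNA. The difference was -1.94 ± 0.37 in KO and -1.82 ± 0.58 in WT, or 3.83-fold lower in KO and 3.53-fold lower in WT. Of all genes 1.22% lay lower in KO and 1.61% in WT.

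Macf1, on chromosome 4, encodes the spectraplakin that guides microtubules along actin. In KO cortex its polyribosomal values were 8.75, 9.17 and 9.70, against 9.81, 10.17 and 10.27 in total RNA. In WT cortex they were 8.80, 9.44 and 9.80, against 9.95, 10.14 and 10.26 in total RNA. No polyribosomal array reached the lowest total array of its genotype, although the gap between them was narrow in both. The difference averaged -0.93 ± 0.55 in KO and -0.74 ± 0.45 in WT, and the KO lysates ranged between -1.51 and -0.29.

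Plec, on chromosome 15, encodes plectin, which anchors intermediate filaments, and it was a dim gene. It had 3.50, 4.27 and 4.66 in KO polyribosomal RNA, against 4.21, 4.56 and 4.82 in KO total RNA. It had 4.15, 4.56 and 4.93 in WT polyribosomal RNA, against 4.32, 4.64 and 5.26 in WT total RNA. The values straddled the floor of 4 in KO polyribosomal RNA, and the groups overlapped throughout. The difference was -0.33 ± 0.30 in KO, below 0 in 5 of 6 lysates, and -0.12 ± 0.36 in WT, below 0 in 4 of 6. Leaving out 1 number moved the WT mean to values between -0.24 and -0.045.

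Dync1h1, on chromosome 12, had the widest spread between lysates of the 10 genes, and its probe set was bright. In KO cortex the dynein heavy chain mRNA gave 6.87, 8.37 and 9.37 in polyribosomal RNA, against 9.57, 9.80 and 10.09 in total RNA. In WT cortex it gave 6.99, 8.72 and 9.39 in polyribosomal RNA, against 9.60, 9.73 and 9.89 in total RNA. The total RNA arrays lay close together in each genotype, while the polyribosomal arrays were widely spread. The difference was -1.36, -0.23, -0.72, -2.24, -2.86 and -1.45 in KO lysates 1 to 6, and -0.71, -0.70, -0.21, -2.78, -1.20 and -1.73 in WT lysates 1 to 6. Its mean and SD were -1.48 ± 0.96 in KO and -1.22 ± 0.92 in WT. In each genotype 99.9% of all genes had a smaller SD over lysates, where the median gene had 0.23 in KO and 0.24 in WT.

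Syne1, on chromosome 10, encodes nesprin-1 and was dim at all its probe sets. Its lowest, median and highest values in KO cortex were 4.02, 4.88 and 5.55 in polyribosomal RNA, against 4.62, 5.13 and 6.15 in total RNA. The WT values were 4.53, 4.86 and 5.47 in polyribosomal RNA, against 4.77, 5.48 and 5.83 in total RNA. It varied about as much among total as among polyribosomal arrays in KO, varied more among total than among polyribosomal arrays in WT, and the groups overlapped. The difference averaged -0.38 ± 0.34 in KO, with the lysate of number 1 above 0 at 0.30, and -0.49 ± 0.22 in WT, where it was below 0 in all 6 lysates.

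Lrp1, also on chromosome 10, did not share the low polyribosomal values. The receptor mRNA had 8.52, 9.11 and 9.35 in KO polyribosomal RNA, against 8.83, 9.04 and 9.28 in KO total RNA. It had 8.51, 9.17 and 9.58 in WT polyribosomal RNA, against 8.35, 8.97 and 9.20 in WT total RNA. The 2 kinds of RNA overlapped in each genotype, with the wider range in polyribosomal RNA. The difference was -0.035 ± 0.32 in KO, below 0 in 2 of 6 lysates, and 0.18 ± 0.34 in WT, below 0 in 1 of 6. Leaving out 1 number moved the KO mean to either side of 0, between -0.10 and 0.067. Of all genes 40.5% had a lower difference in KO and 57.5% in WT, so Lrp1 was near the middle of the array.

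**Figure D1:**
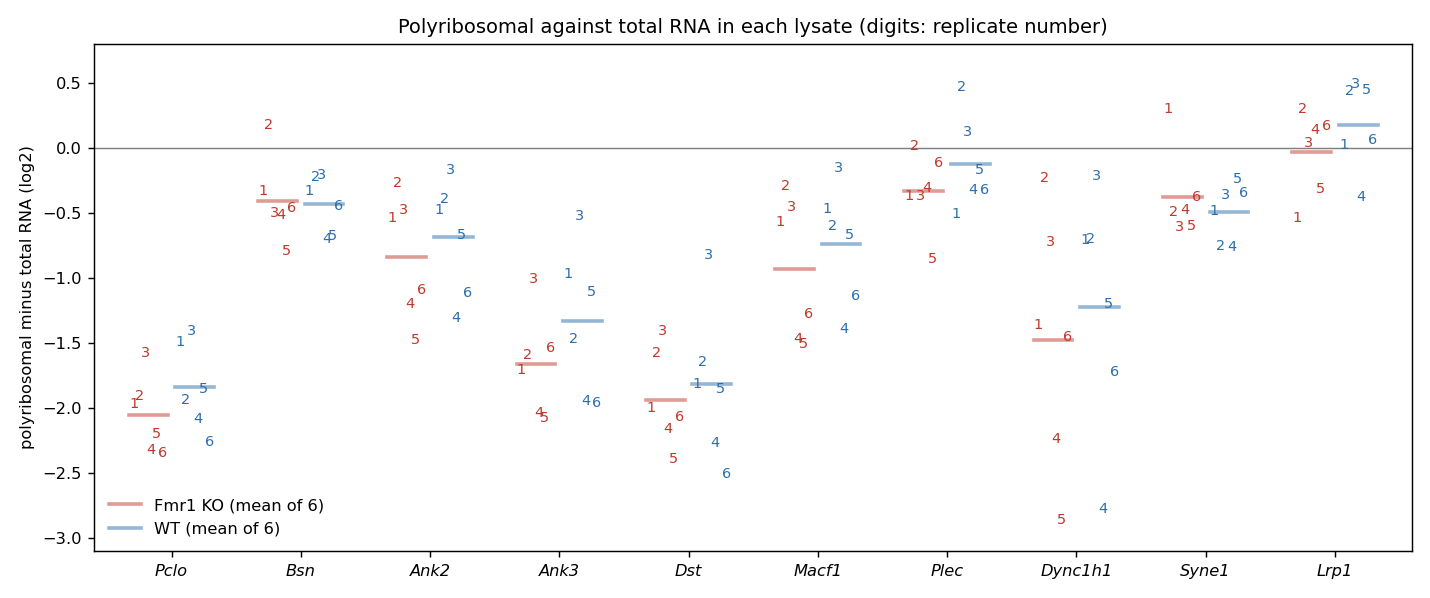
Polyribosomal minus total RNA (log2) of the 10 genes in each lysate, drawn as the lysate's number, with KO (red) left of WT (blue) and a bar at the mean of 6. Dync1h1 spreads from -2.86 to -0.23 in KO and from -2.78 to -0.21 in WT, and the lowest digit is 5 for 7 genes in KO and 4 for 6 genes in WT.

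The lysates in which the mRNAs were low were largely the same across genes. The lysate of number 5 gave the lowest difference of 7 of the 10 genes in KO, where it was the lowest for 25.3% of all genes. In WT the lysate of number 4 was the lowest for 6 of 10, against 27.6% of all genes, and that of number 3 was the highest for 8 of 10, against 9.98%. In KO the highest lysate was number 2 for 6 of 10 genes, against 18.1% of all genes. Over the 10 genes the difference averaged -1.51 in KO lysate 5 and -0.59 in KO lysate 2, and -1.39 in WT lysate 4 and -0.32 in WT lysate 3, while the median over all genes stayed between 0.031 and 0.139 in the 12 lysates.

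The polyribosomal arrays carried this spread. The 3 lowest polyribosomal arrays were those of numbers 4, 5 and 6 for 7 of the 10 genes in KO, against 5.59% of all genes, and for 9 of 10 in WT, against 5.6%. In total RNA the same arrays were the 3 lowest for 2 of 10 genes in KO and 1 in WT, against 9.62% and 9.94% of all genes. This grouping of the numbers was chosen after the values were seen, and the labels give no batch that it could be matched to. The median SD of the 10 genes over 6 arrays was 0.43 in KO polyribosomal RNA, 0.41 in WT polyribosomal RNA, 0.19 in KO total RNA and 0.17 in WT total RNA. For all genes it was 0.21 in KO and 0.22 in WT polyribosomal RNA, and 0.13 in total RNA of each genotype.

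Cell type markers were summed in the same arrays. The summed level of the 8 astrocyte markers, all above the floor in every array, ranged between 12.92 and 13.61 in KO and between 13.01 and 13.73 in WT polyribosomal RNA (log2 of the sum), with the lowest values in number 5 of KO and number 4 of WT. The summed level of the 10 excitatory neuron markers had its lowest polyribosomal value in the same 2 arrays, within ranges of 13.16 to 13.32 in KO and 13.13 to 13.29 in WT. The summed level of the 6 choroid plexus and meningeal markers spanned 6.69 to 12.19 in KO and 6.88 to 12.24 in WT polyribosomal RNA, lowest in number 3 of each genotype, and 3 of them stayed below the floor in all arrays of either group. Such a sum follows its brightest markers, so this span is not one that all 6 shared. In total RNA Ttr averaged 6.915 in KO and 8.93 in WT, and Igf2 7.75 in KO and 7.63 in WT. Folr1, Kl, Dcn and Lum averaged below the floor of 4 there. Interneuron markers were lowest in number 5 of both genotypes, at 12.43 in KO and 12.61 in WT, with a highest value of 12.93 in each. Other sums were lowest elsewhere: oligodendrocyte lineage markers ranged between 11.78 and 12.58 in KO, lowest in number 1, and between 11.84 and 12.70 in WT, lowest in number 5. Vessel markers ranged between 8.40 and 9.12 in KO, lowest in number 2, and between 8.25 and 9.02 in WT, lowest in number 6. Microglial markers ranged between 7.34 and 7.60 in KO, lowest in number 6, and between 7.38 and 7.75 in WT, lowest in number 1. The part of these markers in the spread of the 10 genes was not tested, and no measure of RNA integrity was analysed here.

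Probe sets of 1 gene read different stretches or isoforms of its transcripts, and where several were bright they gave the same order of size. The 2 bright probe sets of Ank2 gave -0.84 and -0.90 in KO, and -0.69 and -0.70 in WT. Those of Macf1 gave -0.93 and -0.87 in KO, and -0.74 and -0.75 in WT. In both genes the probe sets differed by 0.053 at most, far inside the spread between lysates. Those of Pclo were further apart, at -2.06 and -1.63 in KO and -1.84 and -1.47 in WT. For Ank3 the second probe set was the lower one, at -2.06 in KO and -1.63 in WT, against -1.66 and -1.33 at the brightest.

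Dimmer probe sets of the same genes mostly gave smaller differences. Ank3 at its dimmest passing probe set averaged -0.80 ± 0.47 in KO and -0.71 ± 0.62 in WT, and at another -1.48 ± 0.76 in KO and -1.17 ± 0.63 in WT. The second Bsn probe set gave -0.11 ± 0.23 in KO and -0.34 ± 0.19 in WT, and the second Plec probe set gave 0.041 ± 0.17 in KO and 0.18 ± 0.20 in WT. For Plec, then, the sign depended on the probe set: the brighter is of a kind that can match more than 1 transcript, and the other is not. The other 2 Syne1 probe sets gave -0.53 and -0.33 in KO and -0.59 and -0.48 in WT, close to the first. The dim last Pclo probe set, at -1.37 in KO and -1.26 in WT, passed the filter through its total RNA arrays alone, so that a difference was built into its passing. The second Dst probe set reached the floor in 6 of the 24 arrays, all of total RNA, 1 probe set of Ank2 reached it in 2 arrays, and the remaining 12 probe sets of the 10 genes reached it in none.

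**Figure D2:**
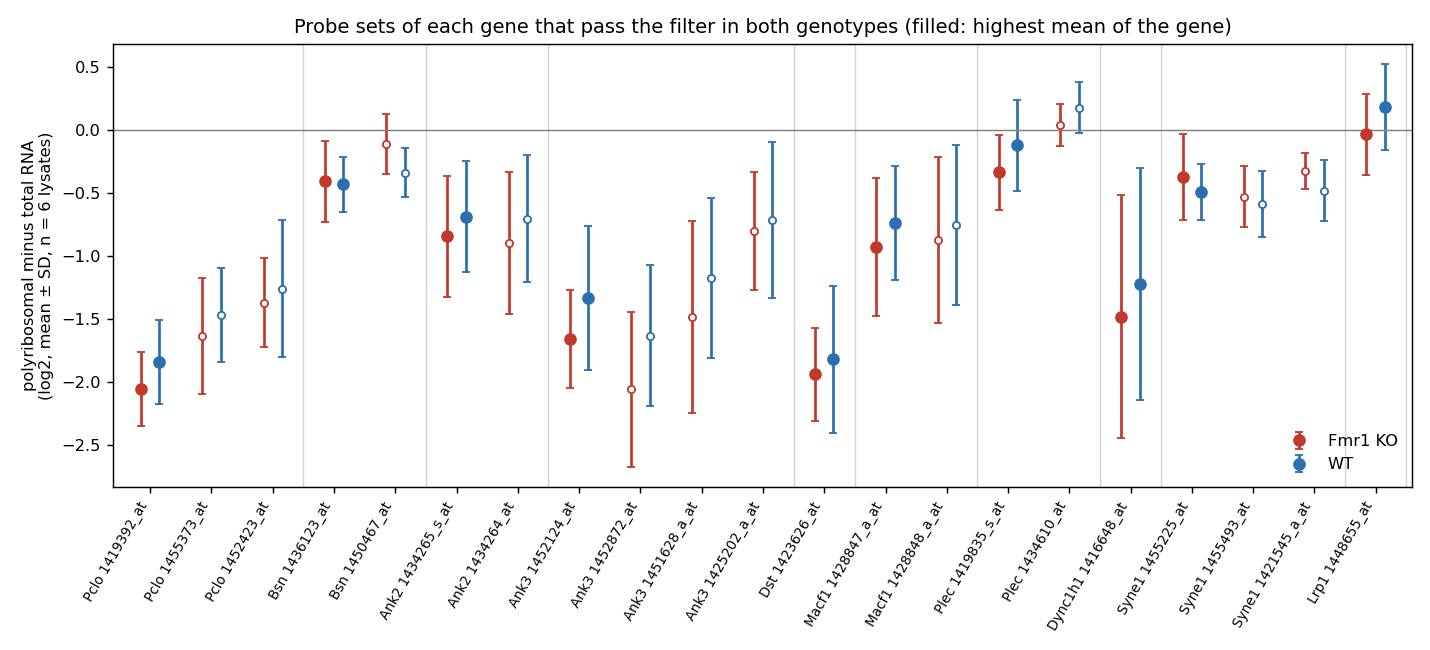
Polyribosomal minus total RNA (log2, mean ± SD over 6 lysates) at the probe sets that passed the filter in both genotypes, KO (red) left of WT (blue), with the brightest probe set of each gene filled. The probe sets of Ank2 and Macf1 differ by 0.053 at most, those of Pclo and Ank3 are 0.30 to 0.42 apart where bright, and the second Plec probe set lies above 0.

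Loss of Fmr1 was compared next, first in polyribosomal RNA, and none of the 10 mRNAs passed the test. At the brightest probe sets all 10 KO minus WT differences were below 0, as were 46.2% of those of all genes. Their median was -0.18, where all genes had 0.010, and they ranged between -0.34 for Plec and -0.022 for Syne1. Of the 20 passing probe sets of the 10 genes 19 were below 0, and the second Bsn probe set had 0.049. Fits were made with limma over all probe sets that passed the filter, and p-values were adjusted by Benjamini and Hochberg. Of the 10 genes 0 were called at an adjusted p under 0.05, against 0.0103% of all genes, and 0 had an unadjusted p under 0.05, against 2.22%. Over all probe sets 0.017% were called, which were the 3 of Fmr1. Since the 10 genes were low and high in the same arrays, their shared sign is not 10 separate observations. Markers of glia lay below 0 in the same comparison: 7 of 8 astrocyte markers, with a median of -0.16, and 6 of 6 oligodendrocyte lineage markers, with a median of -0.10. Below 0 were also 3 of 3 microglial markers, with a median of -0.036, and 1 of 3 vessel markers. Of 3 choroid plexus and meningeal markers 2 were below 0, the lowest at -2.35, while 3 of 10 excitatory neuron and 6 of 9 interneuron markers were. Of the gene lists described below, 19 of 20 ankyrin and spectrin genes were below 0 (median -0.089), and 11 of 15 plakin and filament genes (-0.136). So were 16 of 24 LDL receptor family genes (-0.10) and 35 of 53 other very long genes (-0.054). Counts were 9 of 14 for nuclear envelope, 15 of 28 for active zone and 11 of 26 for dynein genes. None of these markers or list genes was called, and their part in the differences of the 10 genes was not tested.

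At the brightest probe sets Plec had the largest difference, and its value was known when the genes were chosen. It averaged 4.21 ± 0.40 in KO and 4.55 ± 0.30 in WT polyribosomal RNA, with a difference of -0.34 (95% interval -0.73 to 0.045, limma adjusted p = 0.9999). At its second probe set the difference was -0.12. Ank3 followed with 8.69 ± 0.40 in KO and 8.995 ± 0.54 in WT, a difference of -0.30 (95% interval -0.80 to 0.19, adjusted p = 0.9999). At these probe sets the groups overlapped for both genes. Ank3 had -0.34, -0.48 and -0.23 at its other passing probe sets, so at 1 of them its difference was larger than that of Plec. The differences of Dst, Ank2, Macf1 and Dync1h1 were -0.21, -0.19, -0.19 and -0.18, and those of Pclo, Lrp1, Bsn and Syne1 were -0.12, -0.095, -0.082 and -0.022.

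How small a difference could have been seen is set by the spread above. The median half-width of the 95% interval was 0.47 for the 10 genes and 0.27 for all genes. For Dync1h1 the interval ran between -1.11 and 0.75, so a large fall and a large rise both lie inside it. A single number carried much of the shift: without number 5 the median of the 10 genes was -0.082, the differences of Dync1h1 and Syne1 were above 0, and without number 4 the median was -0.24.

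In total RNA the 10 mRNAs were divided in sign and close to 0. In bulk tissue fewer cells of a type and less RNA per cell cannot be told apart. Differences of 5 genes were below 0, where 55.4% of all genes were, and the median was -0.017, where all genes had -0.0098. They ranged between -0.14 for Syne1 and 0.12 for Lrp1. Glial markers lay below 0 in total RNA too: 6 of 8 of astrocytes (median -0.065), 6 of 7 of the oligodendrocyte lineage (-0.095) and 2 of 2 of microglia (-0.29). So did 4 of 10 excitatory neuron, 5 of 9 interneuron, 1 of 2 choroid plexus and meningeal and 0 of 2 vessel markers. None of these markers was called. Of the 10 genes 0 were called, against 0.0413% of all genes, and 0 had an unadjusted p under 0.05, against 5.05%. Over all probe sets 7 were called, or 0.0392%, and 4 with the replicate number as a block, and none of them belonged to the 10 genes in either fit.

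Total RNA was also the tighter comparison. The median half-width of the 95% interval was 0.21 for the 10 genes and 0.17 for all genes. Ank2 averaged 11.28 ± 0.12 in KO and 11.31 ± 0.086 in WT total RNA, a difference of -0.038 with a 95% interval of -0.18 to 0.099. Ank3 averaged 10.35 ± 0.046 in KO and 10.33 ± 0.15 in WT, a difference of 0.029 with an interval of -0.12 to 0.17. These 2 ankyrin intervals were the narrowest of the 10. Among the 22 probe sets that passed, 1 had an unadjusted p under 0.05, against 5% of all probe sets. It was the second Bsn probe set, at 4.35 ± 0.15 in KO and 4.53 ± 0.13 in WT, with a difference of -0.18 (limma adjusted p = 0.982).

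The genotype difference of the polyribosomal minus total value was tested in its own fit over the 12 lysates. It was below 0 for 8 of the 10 genes, where 43.5% of all genes were, with a median of -0.20, where all genes had 0.022. Of the lists described below, 19 of 20 ankyrin and spectrin genes and 12 of 16 plakin and filament genes were below 0. So were 16 of 24 LDL receptor family, 32 of 54 other very long, 8 of 14 nuclear envelope, 16 of 28 active zone and 11 of 27 dynein genes. At the brightest probe sets Ank3 had the lowest value, at -0.33 (95% interval -0.83 to 0.17), and Syne1 the highest, at 0.12 (95% interval -0.21 to 0.45). Other probe sets went further: Ank3 had -0.43 at its second, Syne1 0.15 at its last and Bsn 0.23 at its second. Of the 22 passing probe sets of the 10 genes 17 were below 0. Of the 10 genes 0 were called, against 0% of all genes, with a limma adjusted p of 0.9991 for each, and 0 had an unadjusted p under 0.05, against 2.34%. Without number 5 the median was -0.047. Apart from Lrp1, and from Plec, whose sign depended on the probe set, the low polyribosomal values of these mRNAs were thus present in KO and in WT cortex. A difference between the genotypes in their size was not detectable with 6 lysates each.

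**Figure D3:**
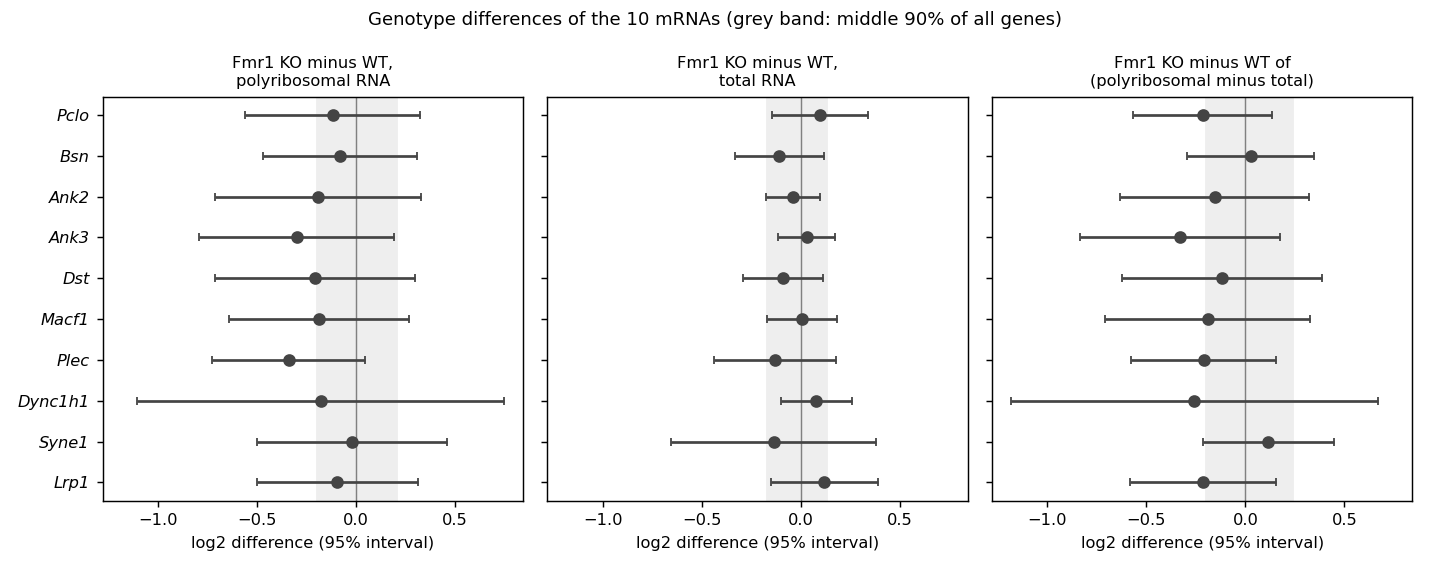
KO minus WT differences (log2, with 95% intervals from limma) of the 10 genes in polyribosomal RNA, in total RNA, and in the polyribosomal minus total value, over 6 lysates per genotype, with a grey band between the 5th and 95th percentiles of all genes. At the brightest probe sets, which are drawn, all 10 are below 0 in polyribosomal RNA, and every interval in the 3 panels includes 0.

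The partners of each protein were counted next, as a description, since no test set them against the 10 genes. In the following lists 1 probe set stands for each gene, the members described above are left out, and shares are of the measured genes called by limma at an adjusted p under 0.05. Each count is to be read beside the shares of all genes. These were 28.2% lower and 38.7% higher in KO, and 28.4% lower and 37.5% higher in WT. Of 28 active zone and vesicle release genes 5 were higher and 7 lower on polyribosomes in KO, and 4 higher and 7 lower in WT, with medians of 0.030 in KO and 0.035 in WT. Unc13c, a vesicle priming factor, was the lowest at -1.76 in KO (adjusted p = 9.38e-07) and -1.90 in WT (adjusted p = 6.72e-06), close to the values of Pclo. Ppfia2, a liprin of the active zone, had -0.67 in KO and -0.64 in WT. The synaptic vesicle protein gene Syn2 and the syntaxin gene Stx1a were higher, by 0.71 and 0.55 in KO and 0.70 and 0.55 in WT.

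Of 19 genes of the ankyrin and spectrin skeleton and its membrane partners, 3 were higher and 10 lower in KO, and 6 higher and 8 lower in WT. Their medians were -0.22 in KO and -0.14 in WT. Kcnq3, a potassium channel that ankyrin-G holds at the axon initial segment, had -1.002 in KO (adjusted p = 8.72e-05) and -0.94 in WT (adjusted p = 0.00119). The adhesion molecule gene Chl1 had -0.51 in KO and -0.50 in WT. Add1, which encodes a protein that caps actin at the spectrin lattice, was higher by 0.40 in KO and 0.58 in WT. Ank1, the erythrocyte ankyrin and a relative of Ank2 and Ank3, had 0.18 in KO, which did not pass (adjusted p = 0.0529), and rose by 0.26 in WT (adjusted p = 0.0132).

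Of 16 other plakins, intermediate filament and microtubule plus-end genes 5 were higher and 4 lower in each genotype, with medians of -0.14 in KO and 0.024 in WT. Clasp1 and Clip1, plus-end proteins with long coding sequences, had -1.07 and -0.83 in KO, and -0.93 and -0.76 in WT. Mapre1, the small end-binding protein EB1, was higher by 0.78 in KO and 0.73 in WT, and the neuronal filament gene Ina by 0.36 in KO and 0.55 in WT.

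Dynein, dynactin and adaptor genes had medians above 0, where Dync1h1 was below 0. Of 26 measured in KO 13 were higher and 6 lower, and of 27 measured in WT 13 were higher and 6 lower, with medians of 0.22 in KO and 0.17 in WT. Bicd2, a cargo adaptor, was higher by 0.83 in KO and 0.89 in WT, and Dync1li1, a light intermediate chain of the same motor, by 0.75 in KO (adjusted p = 1.91e-05) and 0.84 in WT (adjusted p = 1.63e-05). The lowest were the small light chain genes Dynlt3, at -1.17 in KO and -1.37 in WT, and Dynlrb1, at -0.87 in both. Both of these encode small proteins, unlike the heavy chain.

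Of 14 nuclear envelope genes that work with nesprins 8 were higher and 3 lower in each genotype, with medians of 0.27 in KO and 0.33 in WT. Tmpo and Emd, which encode inner nuclear membrane proteins, were higher by 0.75 and 0.71 in KO and by 0.75 and 0.60 in WT, and Tor1b had -0.70 in KO and -0.65 in WT. Syne2, which encodes nesprin-2 and has a very long coding sequence like Syne1, was higher by 0.49 in KO (adjusted p = 0.00452) and 0.53 in WT (adjusted p = 0.00146). Banf1, which encodes a small chromatin-bound partner of emerin, had -0.62 in KO and -0.52 in WT.

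Of 24 genes of the LDL receptor family, their ligands and adaptors 9 were higher and 7 lower in KO, and 8 higher and 7 lower in WT, with medians of 0.032 in KO and 0.091 in WT. Reln, the very long ligand reelin, had -0.79 in KO and -0.87 in WT, and its receptor gene Lrp8 had -0.53 in KO and -0.46 in WT. The lipid carrier gene Apoe was higher by 0.45 in KO and 0.49 in WT, and Apbb2, an adaptor of the amyloid precursor protein, by 0.71 in KO and 0.68 in WT.

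A list of 64 other genes with very long coding sequences, written from general knowledge after the values of the 10 genes were known but without looking at its own, was set beside them as a description. The lengths of these genes were not checked, so the list is not a class defined by length. Of 54 measured, 44 were lower and 2 higher on polyribosomes in KO, where 28.2% of all genes were lower and 38.7% higher. In WT 40 were lower and 2 higher, where 28.4% of all genes were lower and 37.5% higher, and 38 were lower in both genotypes. Their median was -0.52 in KO and -0.55 in WT, and 18 of the 54 lay below the median of the 10 genes in WT. That median of the 10 includes Pclo, Ank3, Dync1h1 and Dst, chosen with their WT values known. The difference was below 0 in all 6 lysates for 36 genes in KO and 36 in WT, where it was for 24.9% of all genes in each. Only Tenm1 of that list had a lower difference than Pclo, in KO and in WT.

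The lowest of the list were the teneurin genes Tenm1, at -2.29 in KO and -1.98 in WT, and Tenm2, at -1.86 in KO and -1.61 in WT, which encode adhesion proteins of synaptic partners. Zfhx4, a transcription factor, had -1.001 in KO and -1.27 in WT. It did not pass the filter among polyribosomal arrays alone, so it entered these comparisons through total RNA, where it was higher, and a fall was built into its passing. Csmd3 and the ubiquitin ligase gene Hectd4 had -1.03 and -1.29 in KO, and -1.22 and -1.14 in WT. Beside Syne2, the calcium channel gene Cacna1a was higher in WT by 0.51 (adjusted p = 0.00485), and had 0.26 in KO (adjusted p = 0.0535). Between KO and WT, limma called 0 of the 177 genes of these 7 lists measured in polyribosomal RNA. There 3, or 1.69%, had an unadjusted p under 0.05, against 2.22% of all genes. In total RNA it called 0 of 178, and 10, or 5.62%, had an unadjusted p under 0.05, against 5.05% of all genes. For the difference between the kinds of RNA it called 0 of 180, and 3, or 1.67%, had such a p, against 2.34% of all genes.

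**Figure D4:**
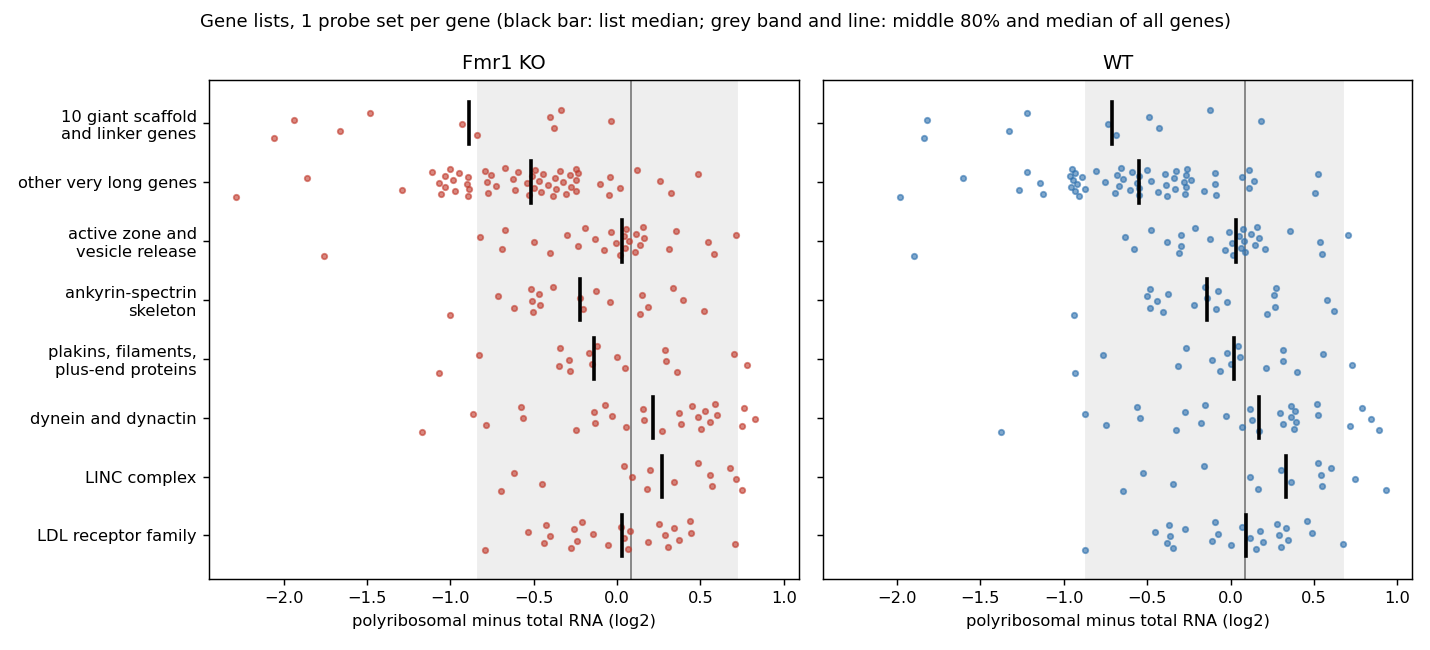
Polyribosomal minus total RNA (log2) of single genes in KO (left) and WT (right), by list, with a black bar at each list's median, a grey line at the median of all genes and a grey band over the middle 80% of them. The 10 genes and the other very long genes have medians of -0.88 and -0.52 in KO and of -0.71 and -0.55 in WT, and the 6 lists of partners have medians between -0.22 and 0.33. The 10 genes include Pclo, Ank3, Dync1h1 and Dst, chosen with their WT values known.

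The genes whose values over the 24 arrays were most like the mean of the 10 were Scg3, Gcc2, Mycbp2, Akap6 and Fstl5. Their Pearson correlations were 0.972, 0.969, 0.961, 0.961 and 0.958, the highest of 9945 genes. Arrays fall into polyribosomal and total groups and share lysates, so these are a description of likeness and not a test. Mycbp2, a very large ubiquitin ligase, had -0.90 in KO and -0.81 in WT, and the Golgi coiled-coil gene Gcc2 had -1.12 in KO and -1.08 in WT. The secretogranin gene Scg3 had a smaller difference, -0.51 in KO and -0.45 in WT, although its values followed the mean of the 10 most closely.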

How the data were processed

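Total RNA and polyribosomal RNA of the cortex were measured on Affymetrix mouse expression arrays, whose short probes read near the 3' ends of transcripts. The deposited values are on a log2 scale and were made by the authors with GCRMA, per the submitters' processing notes, which corrects probe brightness for background by base composition and summarises the probes of a set. The version, and whether all arrays were normalised together, is not given in the sources used here. The median log2 value of the 24 arrays was about 3.2 in every array, and their number, not a read depth, limits the precision.

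Probe sets were named from the platform annotation (34945 with 1 symbol, 932 with several, 9160 with none). Of those with 1 symbol, 34741 had a gene ID found in RefSeq, which gave the chromosomes (GRCm38.p6). In R 4.3.3, 5 fits were made with limma 3.58.1 over all probe sets with a log2 value of 4 or more in at least 6 arrays compared: the genotypes against each other within polyribosomal and within total RNA, the genotype difference of the polyribosomal minus total value of 12 lysates, and polyribosomal against total RNA within each genotype with the lysate as a block. Tests were two-sided, and p-values were adjusted by Benjamini and Hochberg over all probe sets, with a threshold of 0.05. The scripts were tested on simulated data. The members and lists were chosen with earlier results of these data known.

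All probe sets of the 10 genes were described. From each list (active zone, ankyrin and spectrin, plakins and filaments, dynein, nuclear envelope, LDL receptor family, other very long genes) up to 2 falls and 2 rises in WT, largest among those called with the same sign in 6 lysates, were named, and from the very long genes up to 5 of each. Lists of cell type markers were treated like the other lists. Same-numbered KO and WT arrays deviated together in total RNA (correlation of deviations from the group means 0.133 to 0.532), but not in every case in polyribosomal RNA (-0.137 to 0.625). The fits and intervals given have no such block, and in total RNA the count with it stands beside the count without it. Within a lysate, where the pairing comes from the protocol, polyribosomal and total arrays had 0.156 to 0.474 in KO and 0.0211 to 0.525 in WT. Alternatives were other filters, quantile normalization, median centring, an intensity trend, array weights, leaving out each number, other blocks and other choices of probe set. Groups by protein length could not be formed, since no protein table was used here.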

Additional observations from a re-analysis of the deposited data

Results flagged for a closer look

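Of the 40 groups of 6 arrays formed by the 10 genes, 1 held an array far from the others. It was the KO polyribosomal array of number 3 for Pclo, at 8.36, where the next highest of the group was 7.70, and this gap was 0.645 of the group's range. About 1 in 20 such groups is expected to show this by chance. In WT the array of number 3 was not apart for Pclo.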

How the results depend on the processing

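With the replicate block the number of probe sets called between KO and WT was 3 in polyribosomal RNA, 4 in total RNA and 0 for the polyribosomal minus total value, against 3, 7 and 0 without it. It changed no call of the 10 genes, whose medians stayed at -0.18, -0.017 and -0.20. Without the lysate as a block (no replicate block) 11177 probe sets were called between polyribosomal and total RNA in KO and 11300 in WT. The 7 probe sets called in total RNA became 3 under the stricter filter of 6 log2 units, 2 without numbers 4 and 5 together (an alternative chosen after seeing the data), and 3 to 5 when 1 number was left out. None of these belonged to the 10 genes. The stricter filter left 7 of the 10 genes and moved their median polyribosomal minus total difference to -1.48 in KO and -1.22 in WT, by its construction, since the dim genes left. By the median over probe sets Pclo had -1.63 in KO and -1.47 in WT. Without the probe sets that can match several transcripts Plec had 0.041 in KO and 0.18 in WT.

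Leaving out 1 number, the median of the 10 genes ranged between -1.01 and -0.76 in KO and between -0.82 and -0.58 in WT for polyribosomal against total RNA, between -0.24 and -0.082 for KO against WT in polyribosomal RNA, and between -0.23 and -0.047 for the genotype difference of the polyribosomal minus total value. Between polyribosomal and total RNA the sign turned for Plec in KO and in WT as given above, and in KO for Lrp1, which ranged between -0.10 and 0.067. The other signs that turned were of genotype differences that were not called, and the cause was not tested. The largest of these was Dync1h1 for the polyribosomal minus total value, at -0.26 with all numbers. In polyribosomal RNA they ranged between -0.20 and 0.028 for Pclo, -0.24 and 0.022 for Lrp1, -0.34 and 0.098 for Dync1h1, and -0.11 and 0.076 for Syne1, which had 0.11 without numbers 4 and 5. In total RNA the ranges were -0.020 to 0.062 for Ank3, -0.034 to 0.059 for Macf1 and -0.0038 to 0.14 for Dync1h1. There Macf1 was -0.00027 with array weights, -0.027 by the median over probe sets and -0.050 without numbers 4 and 5, Pclo -0.028 without numbers 4 and 5, Ank3 -0.053 by the median over probe sets, and Plec 0.020 without multiply matching probe sets. For the polyribosomal minus total value, Bsn ranged between -0.048 and 0.090, Syne1 between -0.017 and 0.21, and Dync1h1 between -0.42 and 0.022, and Bsn was -0.00053 with median centring and -0.035 with array weights. The alternative on protein length was not run. Dim probe sets near the floor, as for Plec, Syne1 and Bsn, limit the differences that can be seen.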

Other observations

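Cell type markers lay on both sides of 0 in polyribosomal against total RNA. The interneuron gene Calb2, for the calcium buffer calretinin, was higher on polyribosomes by 1.34 in KO and 1.23 in WT, and Olig2, a transcription factor of the oligodendrocyte lineage, by 0.93 in KO and 0.88 in WT. Aif1, a microglial gene, had -1.07 in KO and -1.32 in WT, and the vesicular glutamate transporter gene Slc17a7 had -0.70 in KO and -0.99 in WT. All 4 passed the limma threshold in both genotypes. Of all genes 28.2% were lower and 38.7% higher in KO, and 28.4% were lower and 37.5% higher in WT. By list, 3 of 10 excitatory neuron markers were higher and 3 lower in KO, and 2 higher and 3 lower in WT. Of 9 interneuron markers 3 were higher and 3 lower in KO, and 2 higher and 3 lower in WT, and of 8 astrocyte markers 3 were higher and 0 lower in KO, and 3 higher and 1 lower in WT. Of 6 oligodendrocyte lineage markers 3 were higher and 1 lower in each genotype. Of 2 microglial markers measured 1 was lower in each genotype, and of the choroid plexus and meningeal markers 1 was higher and 1 lower of 2 measured in KO, and 2 were higher and 1 lower of 3 measured in WT. Of 3 vessel markers 2 were higher in each genotype, and no blood marker was measured.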
